A study of Mus musculus with 2 samples.

Results

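Mir764, Mir1912, Mir1264, Mir1298 and Mir448 are the 5 named microRNA (miRNA) genes that lie in introns of Htr2c, the X-linked gene of a serotonin receptor. They were taken by gene name and host from GENCODE M21, not by their levels, out of 2202 miRNA genes in each table. Small RNA had been sequenced in 2 libraries of 1 group, biological replicates 1 and 2. Both came from hippocampus tissue of male B6CASTF1/J mice aged 25 days, first-generation hybrids of a C57BL/6J mother and a CAST/EiJ father. The labels name no treatment, and there was no second genotype or tissue. The labels give the libraries separate biosamples but 1 donor entry, so the spread between them may be partly technical. The tissue is labelled as a layer of hippocampus without naming the layer.

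An intronic miRNA is often cut as a hairpin from the host gene's own primary transcript, and one strand of the hairpin stem is loaded into a silencing complex. That strand pairs with target mRNAs mainly through its seed, bases 2 to 8. Whether the 5 genes here are cut from the Htr2c transcript was not tested. Htr2c encodes a receptor that acts through Gq proteins and whose mRNA is edited from adenosine to inosine. It is transcribed in several neuron populations and very strongly in the epithelium of the choroid plexus, which lies against the hippocampus and can be carried along in dissection. Roles reported elsewhere include repression of the adipocyte factor KLF5 by miR-448 in mouse fat cells. Because a male has a single X chromosome, all 5 genes are present in 1 copy, of C57BL/6J origin, the strain of the mm10 assembly.

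The mature strands below are those of RefSeq on GRCm38.p6, the assembly of mm10, and are shown because the genes share a host and might be taken for copies of each other. Written 5′ to 3′ with the seed in capitals, they are as follows.
mmu-miR-764-5p: gGUGCUCAcauguccuccu
mmu-miR-764-3p: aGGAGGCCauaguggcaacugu
mmu-miR-1912-3p: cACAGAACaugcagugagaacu
mmu-miR-1264-3p: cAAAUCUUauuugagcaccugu
mmu-miR-1298-5p: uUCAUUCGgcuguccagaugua
mmu-miR-1298-3p: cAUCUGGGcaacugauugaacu
mmu-miR-448-5p: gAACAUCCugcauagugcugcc
mmu-miR-448-3p: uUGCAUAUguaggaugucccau

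No pair of these 8 strands shared a seed, and the longest stretch common to strands of different genes was 8 bases, between miR-764-3p and miR-1298-3p. Of the 8 seeds, 7 occurred in no other mouse miRNA among 1679 mature names in the table, and the seed of miR-764-3p was shared with miR-7062-5p alone. Across all 1398 seeds in the table, 1211 belonged to a single name. None of the 8 strands shared more than 12 bases with another gene's hairpin on either strand. This bears on the counts because reads aligned to several places are held apart from them, and none of the 8 strands occurs whole in a second hairpin of the table. Only those hairpins were searched, not the genome, so unique alignment of the reads is not shown. For Mir1264 neither a hairpin nor a 5p strand was available. The counts do not separate the strands of a hairpin, so each level below is that of a whole gene.

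The genes are spread over much of the host. Htr2c spans 234765 bases on the plus strand of chromosome X (chrX:146962513-147197277, mm10), and all 5 miRNA genes lie on the same strand and overlap none of its exons. In the transcript Htr2c-201, intron 2, of 90779 bases, holds Mir764 (chrX:147002259-147002366), Mir1912 (chrX:147009441-147009527), Mir1264 (chrX:147010601-147010686) and Mir1298 (chrX:147064905-147065002). Mir448 (chrX:147158210-147158321) lies apart from them in intron 4, of 93522 bases. Mir1912 and Mir1264 are the closest neighbours, 1073 bases apart. Mir1298 begins 54218 bases after the end of Mir1264, and Mir448 begins 93207 bases after the end of Mir1298.

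**Figure D1:**
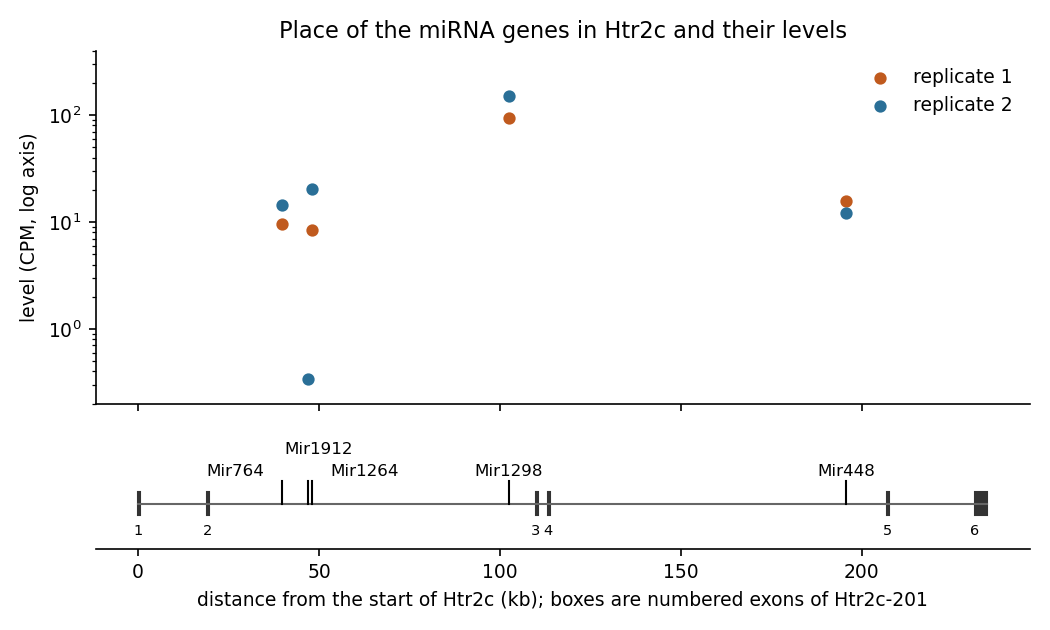
Place and level of the Htr2c miRNA genes. The lower panel shows the exons of Htr2c-201 as numbered boxes by distance from the start of the gene in kb, and the upper panel the level in each library in CPM, counts per 1000000 gene-assigned counts, on a log axis. Mir1298, 102 kb from the start, stands above the other genes in both libraries, while Mir1912 has a point for replicate 2 alone because replicate 1 had no count.

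By read counts, Mir1298 was the highest of the host's miRNA genes in hippocampus. It had 490 counts in replicate 1 and 882 in replicate 2, out of 5183641 and 5871233 counts assigned to miRNA genes. In CPM of that total, Mir1298 stood at 94.5 (95% exact Poisson interval 86.3 to 103) in replicate 1 and at 150 (140 to 160) in replicate 2. Its mean was 122 ± 39.4 CPM (SD, n = 2). By mean CPM it held place 187 of 2202 miRNA genes, between Mirlet7f-1 at 123 ± 11.4 CPM and Mir186 at 122 ± 57.9 CPM. These neighbours in rank differed from Mir1298 by far less than its SD. Reads aligned to several places are not counted, so places by level compare uniquely aligned reads alone. Genes that share a mature sequence with another gene, as in the let-7f family, may stand too low in the ranking. All intervals here treat reads as independent and cover counting error only. No molecular identifiers are mentioned in the sources used, so amplified copies of a molecule may be counted apart and the intervals may be too narrow.

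The other genes lay about an order of magnitude lower or had almost no counts. Mir1264, the neighbour of Mir1912, had 44 and 119 counts in replicates 1 and 2, or 8.49 and 20.3 CPM, a mean of 14.4 ± 8.33 CPM (SD, n = 2). Mir448 had 82 and 71 counts, or 15.8 and 12.1 CPM, a mean of 14.0 ± 2.63 CPM. Mir764 had 50 and 85 counts, or 9.65 and 14.5 CPM, a mean of 12.1 ± 3.42 CPM. The means of these 3 genes differed by less than the SD of each of them, so no order among them is given. Mir1912 had no count in replicate 1, with an exact Poisson interval of 0 to 0.712 CPM, where a plain limit of 3 counts stands at 0.579 CPM. In replicate 2 Mir1912 had 2 counts, a level of 0.341 CPM (exact Poisson interval 0.0413 to 1.23). It sits between Mir764 and Mir1264 in the same intron, yet at a level below that of both in each library. Per 100 bases of hairpin, the mean levels were 125 CPM for Mir1298, 16.7 for Mir1264, 12.5 for Mir448, 11.2 for Mir764 and 0.196 for Mir1912, so Mir1298 stayed highest and Mir1912 lowest.

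**Figure D2:**
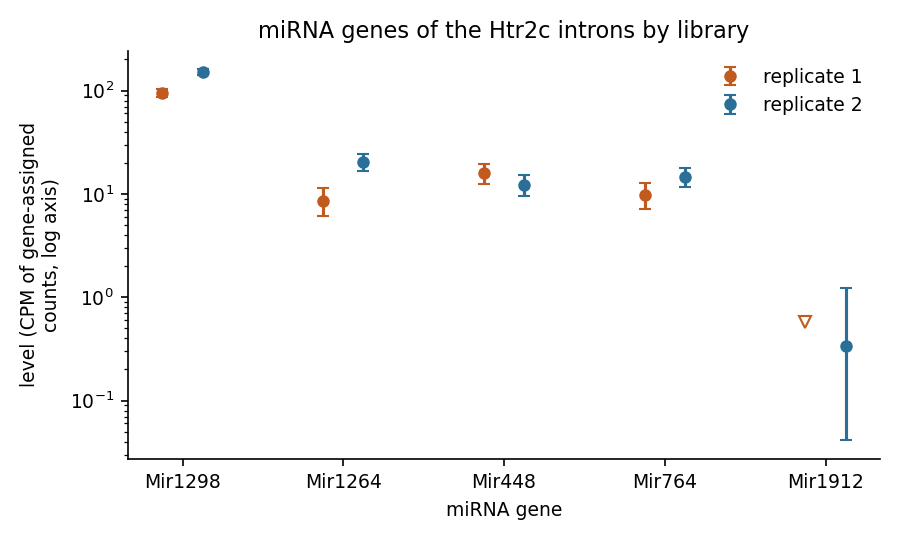
Level of each Htr2c miRNA gene in the 2 libraries, in CPM of gene-assigned counts on a log axis. Points are values, bars are 95% exact Poisson intervals, and the open triangle marks 0.579 CPM, a limit of 3 counts for the 0 counts of Mir1912 in replicate 1, and is no interval bound. Mir1298 lies above all other genes in both libraries, and the intervals of the 2 libraries do not overlap for Mir1298 and for Mir1264.

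With a minimum of 10 counts in both libraries, 4 of the 5 genes were detected and Mir1912 was not. Over all miRNA genes 20.2% passed the same minimum. Of the 734 miRNA genes in introns of protein-coding hosts 191 (26.0%) passed, and among the 142 on chromosome X 26.8% did. Mir1298 held place 64 of the 734 intronic genes and place 19 of the 142 on chromosome X. The level of Mir1298 was close to the median of 113 CPM over the 38 detected X-linked genes, whereas Mir1264, Mir448 and Mir764 held places 28, 29 and 30 on that chromosome. Far above them stood X-linked Mir652, in an intron of Tmem164, at 11212 ± 17.1 CPM, Mir221 at 6464 ± 266 CPM and Mir361, in an intron of Chm, at 4458 ± 215 CPM (SD, n = 2).

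Within the host, how evenly were the counts divided? Mir1298 held 73.6% of the counts of the 5 genes in replicate 1 and 76.1% in replicate 2, with exact binomial 95% intervals of 70.0 to 76.9 and 73.5 to 78.5, a mean of 74.8% ± 1.79 (SD, n = 2). Its share thus differed little between the libraries. Mir448 held 12.3% (9.91 to 15.1) in replicate 1 and 6.13% (4.82 to 7.66) in replicate 2, and these intervals do not overlap. Mir1264 held 6.61% (4.84 to 8.77) and 10.3% (8.58 to 12.2), and Mir764 held 7.51% (5.62 to 9.78) and 7.33% (5.90 to 8.99). The part of Mir764 was therefore nearly constant, while Mir448 and Mir1264 took opposite ranks in the 2 libraries.

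Ratios of one gene to another within a library do not depend on the scaling between libraries. They are ratios of read counts, and how evenly different sequences were captured was not measured, so they need not be ratios of molecules. Mir1298 was 9.80-fold above Mir764 in replicate 1 and 10.4-fold above it in replicate 2, with exact 95% intervals from the counts of 7.32 to 13.4 and 8.30 to 13.1. Above Mir1264 it stood by 11.1-fold (8.17 to 15.5) in replicate 1 and by 7.41-fold (6.11 to 9.05) in replicate 2. Above Mir448 it stood by 5.98-fold (4.72 to 7.65) and 12.4-fold (9.75 to 16.1). Of the 6 pairs among the 4 detected genes, only these 3 with Mir1298 had the same order in both libraries with both intervals clear of 1. Mir1264 was at 0.537 of the level of Mir448 (0.363 to 0.783) in replicate 1 and at 1.68 (1.24 to 2.28) in replicate 2, so these genes changed places. The pairs of Mir448 with Mir1298 and with Mir1264 were the only ones whose intervals in the 2 libraries did not overlap. In replicate 1 Mir1298 stood 163-fold above a limit of 3 counts, set for the absent counts of Mir1912, and this is no interval bound. In replicate 2 Mir1298 was 441-fold above Mir1912 (122 to 3647).

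The hairpins of the strongest and the weakest gene are shown to set this difference beside their sequence. They are RefSeq hairpins on the plus strand of chromosome X, 5′ to 3′, with annotated mature strands in capitals.
Mir1298: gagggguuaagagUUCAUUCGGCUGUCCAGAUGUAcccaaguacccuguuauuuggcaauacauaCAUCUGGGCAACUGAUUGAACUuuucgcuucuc
Mir1912: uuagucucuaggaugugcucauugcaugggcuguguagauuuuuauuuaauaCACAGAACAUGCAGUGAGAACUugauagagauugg

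The minimum free energy computed with RNAfold was -46.3 kcal/mol over the 98 bases of Mir1298 and -41.1 kcal/mol over the 87 bases of Mir1912, or -0.47 kcal/mol per base for each. The hairpin of Mir764 had -0.46 and that of Mir448 -0.45 kcal/mol per base, against a median of -0.41 over 1005 mouse hairpins in the table. In the predicted fold 79.6% of the bases of Mir1298 and 66.7% of those of Mir1912 were paired, and their GC content was 44.9% and 37.9%. The hairpin of Mir1264 was not available and so was not folded here. RefSeq annotates 2 mature strands for Mir1298 and 1 for Mir1912.

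GENCODE M21 places 2 more miRNA genes without a Mir name in Htr2c. Gm22650 lies in intron 2 and had 21 counts in replicate 1 and 27 in replicate 2, or 4.05 and 4.60 CPM, between the levels of Mir764 and Mir1912. Gm24627 lies in intron 4 and had no count in either library. With these included, Mir1298 held 72.8% ± 2.15 of the host's counts (SD, n = 2).

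Which hosts resemble Htr2c? Of 7 protein-coding genes with at least 3 intronic miRNA genes on their strand, 4 had at least 3 detected: Htr2c, Clcn5, Sfmbt2 and Ttll10. The nearest in design is Clcn5, a chloride transporter gene that is also X-linked and holds 5 detected miRNA genes. The summed mean level of the 5 Htr2c genes was 163 ± 48.7 CPM (SD, n = 2), against 2964 CPM for those of Clcn5. In Clcn5 the leading gene Mir501 held 43.1% of the host's counts in replicate 1 and 43.7% in replicate 2, with Mir532 close behind it at 1168 CPM beside 1287 CPM for Mir501. In Sfmbt2 the leading Mir467d held 45.6% ± 1.65 (SD, n = 2). Sfmbt2 holds 119 intronic miRNA genes, many of them numbered copies, and 8 were detected. Reads aligned to several places are not counted, so its share here and its fold range below describe uniquely aligned reads alone. They are not fully comparable with those of Htr2c. In Ttll10 a different gene led in each library, Mir429 with 49.7% in replicate 1 and Mir200b with 58.6% in replicate 2. Among the 4 hosts the highest gene's share was above the other 3 in Htr2c in each library, at 71.3% and 74.4% over its 7 genes, a description with no test. Asking for 3 detected genes leaves out hosts with 1 dominant gene, and in Cdc20b, with 3 intronic genes of which 1 was detected, Mir449a held 100% and 99.4%, above the share of Mir1298. The fold range between detected genes is given as another measure, but it cannot rank the hosts by unevenness. It leaves out the undetected genes of Htr2c, among them Mir1912, and those of Sfmbt2. The detection minimum also caps it by the level of the leading gene. That mean level was 122 CPM for Mir1298, 1287 for Mir501, 907 for Mir467d and 25.6 for Mir200b. The highest detected gene was 28.3-fold above the lowest in Htr2c, with Gm22650 counted, and 60.8-fold in Clcn5, 62.5-fold in Sfmbt2 and 8.07-fold in Ttll10.

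**Figure D3:**
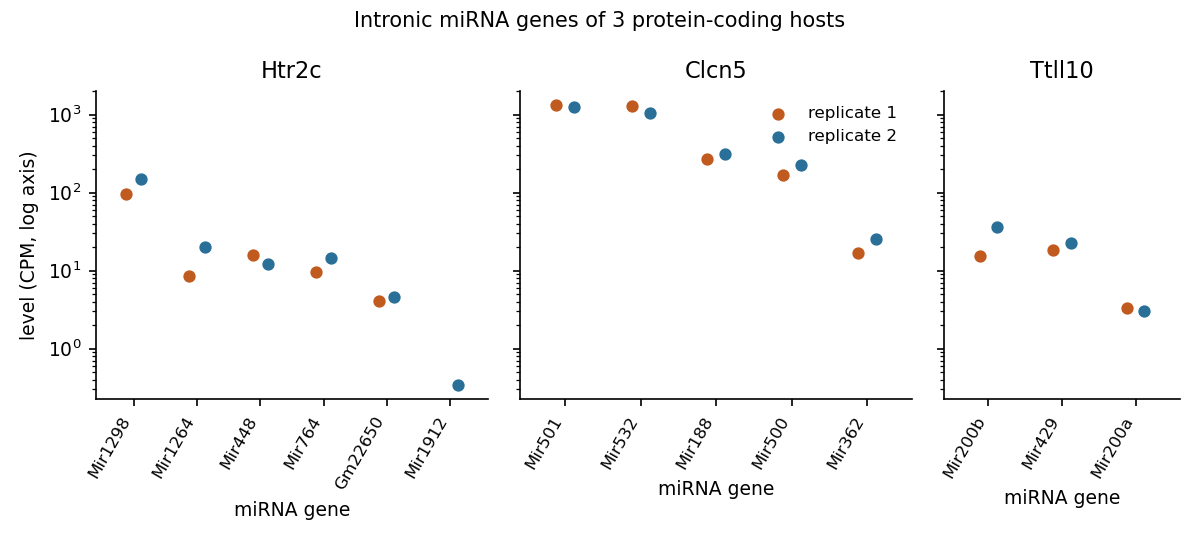
Levels of the intronic miRNA genes of Htr2c, Clcn5 and Ttll10 in each library, in CPM on a log axis and ordered by mean, without genes at 0 in both libraries. One gene stands clear of the rest in Htr2c, while Mir501 and Mir532 lie side by side at the top of Clcn5.

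Genes of receptors and channels were compared as hosts by their name prefixes, covering serotonin, dopamine, GABA, glutamate, muscarinic, nicotinic and adrenergic receptors and Trpm channels. Of 20 miRNA genes in such introns, 10 were detected, 5 of them in Htr2c including Gm22650. Without the 5 named Htr2c genes, 6 of 15 (40.0%) were detected, beside 26.0% of all intronic miRNA genes. Those 15 still include Gm22650, detected, and Gm24627, not detected, both of Htr2c. The intronic genes as a whole include 119 of Sfmbt2, with 8 detected, which lowers their share. The prefixes match symbols only, and the detected genes include Mir6953 in Grina, which is not itself a receptor subunit gene. The highest was Mir346 in the glutamate receptor gene Grid1, at 1350 CPM in replicate 1 and 961 CPM in replicate 2. Mir204 in Trpm3 had 656 and 559 CPM, and Mir490 in the muscarinic receptor gene Chrm2 had 164 and 161 CPM. Mir1298 came next at place 4, with both of its library values below both of Mir490. The GABA receptor gene Gabra3 hosts Mir105 and Mir767, both with no count. Mir224 in Gabre had 15 and 11 counts and its neighbour Mir452 none, so another X-linked receptor host also held a detected and an undetected gene.

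Mir1298, Mir1264 and Mir764 were lower in replicate 1 than in replicate 2, and Mir448 was not. The ratio of replicate 1 to replicate 2 was 0.629 for Mir1298 (exact 95% interval of the counts 0.562 to 0.704), or -0.66 on the log2(CPM + 1) scale, with an adjusted p of 2.24e-16 in an exact binomial test over all genes tested. For Mir1264 it was 0.419 (0.289 to 0.596), or -1.16, with an adjusted p of 6.53e-07 in the exact test. For Mir764 it was 0.666 (0.460 to 0.956), or -0.54, with an adjusted p of 0.0417 in the exact test. For Mir448 it was 1.31 (0.940 to 1.82), or 0.36, with an adjusted p of 0.159 in the exact test.

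These calls compare 2 libraries and read sampling alone, with Benjamini-Hochberg adjustment. They do not show a difference beyond the spread between samples. Of the 4 Htr2c genes tested, 3 were called lower in replicate 1 and none higher, beside 39.4% lower and 20.3% higher of the 472 miRNA genes tested. The median log2 ratio over the 472 genes was -0.16 and the median absolute log2 ratio 0.36. A difference at least as far from 0 as that of Mir1298 was seen in 118 genes (25.0%), as that of Mir764 in 150 (31.8%), as that of Mir448 in 232 (49.2%) and as that of Mir1264 in 45 (9.53%). The biological coefficient of variation over the 472 genes, estimated with edgeR, was 0.320. With trimmed-mean (TMM) library sizes 151 genes were called lower and 124 higher, with DESeq2 size factors 138 and 139. Under both, the log2 ratio of Mir764 no longer passed, at -0.41 and -0.38, and that of Mir448 did, at 0.49 and 0.52. Mir1298 and Mir1264 passed and stayed lower in replicate 1 under both.

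**Figure D4:**
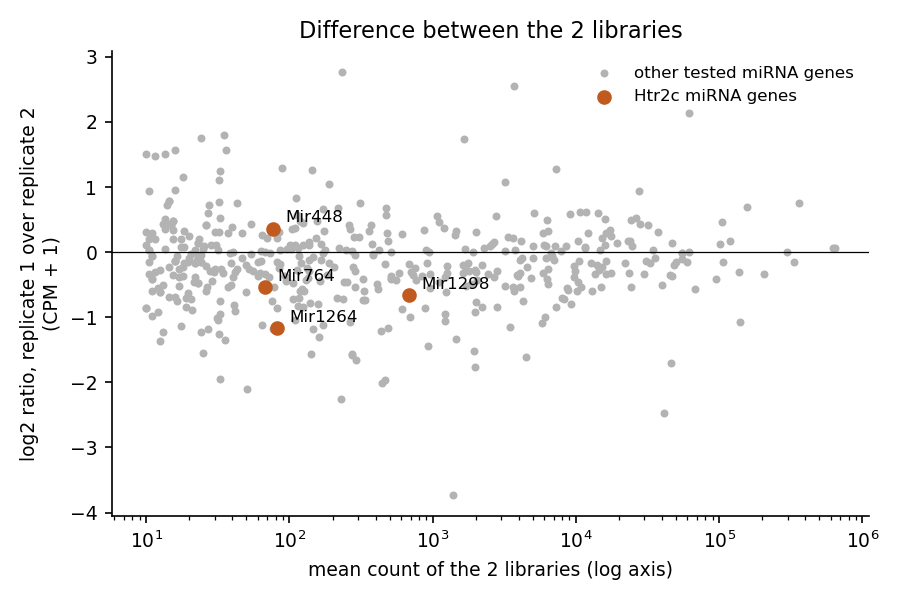
Log2 ratio of replicate 1 over replicate 2, on CPM + 1, against the mean count of the 2 libraries on a log axis, for the 472 miRNA genes tested. The 4 Htr2c genes that were tested lie inside the cloud of other genes, Mir1264 nearest its lower edge and Mir448 above 0.

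Marker lists of cell types in and near the hippocampus are given beside the cluster. The summed level of the 5 genes was 128 CPM in replicate 1 and 197 CPM in replicate 2, a ratio of 0.651 (0.591 to 0.717). The list for choroid plexus and ciliated epithelium, with 4 of 7 genes detected and Mir449b at 0 in both libraries, summed to 1355 CPM in replicate 1 and 1098 CPM in replicate 2, a ratio of 1.23. Within it Mir204, also abundant in choroid plexus, was higher in replicate 1, and Mir211 had 22 counts in replicate 1 and 5 in replicate 2. Genes of the miR-34 and miR-449 family, active in multiciliated cells, went different ways, with Mir34c higher in replicate 1 at 599.8 and 410.0 CPM and Mir449a lower there at 84.7 and 115 CPM. The neuron list, with 7 of 9 genes detected and none at 0 in both, summed to 32978 and 34808 CPM, a ratio of 0.947. That sum was led by Mir132, lower in replicate 1 at 14669 against 19562 CPM, whereas 5 of the 7 neuron genes tested were called higher in replicate 1 and 1 lower, with a median log2 ratio of 0.13. Mir124a-1, Mir124a-2 and Mir124a-3 had means of only 2.57, 0.0852 and 0.959 CPM. Reads aligned to several places are not counted, so the levels of marker genes with copies, such as these, may be understated in the sums. The oligodendrocyte list, with 2 of 3 detected, summed to 5250 and 6676 CPM, a ratio of 0.786. Vessel genes, with 3 of 3 detected, had a ratio of 1.06 but went different ways. Mir126a was lower in replicate 1, at 5300 against 5849 CPM in replicate 2. Mir143 (3534 against 2801 CPM) and Mir145a (480 against 143 CPM) were higher in replicate 1. Microglia and leukocyte genes, with 4 of 4 detected, summed to 1273 and 1021 CPM. Mir150 led that sum with 1183 and 966 CPM. Of the 4 genes, 2 were called higher in replicate 1 and 0 lower. The part of these cells in the levels of the Htr2c genes was not tested. In bulk tissue, fewer cells of a type and less RNA per cell cannot be told apart. The mRNA of Htr2c was not analysed here.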

How the data were processed

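MicroRNA sequencing of 2 libraries of 1 group was used. The deposited tables hold unscaled counts of reads for each miRNA gene, on mm10 and GENCODE M21 per the deposited text files. The aligner and counter were not given in the sources used here. The column on the strand of the gene was used. All 2202 gene identifiers matched GENCODE M21. The 4 rows naming no gene, 62.7% of reads in replicate 1 and 63.3% in replicate 2, were left out of totals. Of these, multiply aligned reads were 43.6% and 43.2% of reads. CPM, with a pseudocount of 1 for log2 ratios, intervals and the 2-sided exact binomial test against the share of replicate 1 in the total (mean count of at least 10, Benjamini-Hochberg over all 472 genes) were computed with scipy 1.17.1, after a check on simulated data. The simulated counts carried read sampling alone, so that check does not cover the spread between libraries. With 1 group no quasi-likelihood coefficient exists, so edgeR 4.0.16 gave TMM factors and the dispersion over all genes tested, and DESeq2 1.42.0 gave size factors. Free energies came from RNAfold 2.7.2. Intronic means contained on the same strand in a protein-coding gene, clear of its exons. Named are the 5 genes, the 3 highest of the chromosome X list and of the receptor and channel list, and the rank neighbours of Mir1298. Others were chosen after their values were seen. Members and lists were chosen with earlier results of these data known.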

Additional observations from a re-analysis of the deposited data

How the results depend on the processing

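With multiply aligned reads added to the total, the levels were 56.3 CPM for Mir1298, 6.42 for Mir448, 5.55 for Mir764 and 74.97 for the summed cluster, since the larger total lowers every CPM. A minimum of 100 counts left 1 gene detected, Mir1298. The share of Mir1298 over all 7 annotated genes, a setting added after seeing the data, was 72.8%. Of the 5 genes, 3 held their rank by mean CPM without replicate 1 and 2 without replicate 2. The log2 ratio of Mir764 did not pass under TMM (-0.41), DESeq2 size factors (-0.38) or without a filter on the mean count (-0.54, adjusted p 0.183 in the exact test), which tests more genes. That of Mir448 passed under TMM (0.49) and DESeq2 (0.52). Over the alternatives the adjusted p of the exact test ran from 0.0417 to 0.183 for Mir764 and from 0.0320 to 0.626 for Mir448. With a minimum mean count of 100 only Mir1298 could be tested. In 62 other recomputations each result stayed on its side of the threshold or within 1 SD, and none reversed a direction. Many of these could not have moved, so their number is no measure of stability. With n = 2 each library's value lies within 1 SD of the mean, and a pseudocount does not enter the exact test. The column that ignores strand held the same counts for the 5 genes. Mir1264 fell to 6.61 CPM with multiply aligned reads in the total, within 1 SD only because its SD was 8.33. Values from each library alone are in the text above. No paired analysis was possible because there is 1 group. Counts of at most 119 per library limit Mir1264, Mir448 and Mir764.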
